A study of Mus musculus with 4 samples.

Results

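The genes of cholesterol synthesis, of its control by the SREBP transcription factors and of sterol handling were described in mouse T helper 17 (Th17) cells, an IL-17-secreting lineage of CD4 T cells. The module holds 34 genes of the 50600 in the deposited tables. They were chosen by name, with no threshold on level, and each was found by its gene ID. By role they are 18 enzymes of synthesis, 6 regulators, 7 genes of sterol handling and 3 enzymes that make or use oxysterols.

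RNA sequencing was done on 4 libraries of primary Th17 cells of mouse strain C57BL/6NJ, labelled biological replicates 1 to 4. The linked culture protocol is one for the differentiation of CD4 T cells, and a time of 48 hours appears in the name given to the counting output but nowhere in the labels. The assay is labelled as total RNA sequencing while the linked library protocol names poly(A)-tailed RNA. All 4 libraries form a single group that was cultured and labelled alike, with no treated or mutant counterpart, so genes are set against each other within these cells and libraries against each other within the group. The labels give 1 shared donor, do not record sex or age, and leave it unsaid if each library had its own animal or culture. The tests below therefore measure only the spread between these samples, which may be partly technical and includes the difference in sex-linked genes given below.

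Cholesterol is built from acetyl-CoA through mevalonate, the isoprenoids and squalene, and a last series of enzymes trims lanosterol to cholesterol. When sterols in the endoplasmic reticulum are low, SCAP escorts the SREBP precursors to the Golgi, where they are cut to release transcription factors that switch on the synthesis genes. INSIG proteins hold SCAP back when sterols are plentiful, and oxysterols act on both INSIG and the nuclear receptor LXR, which turns on cholesterol export. Activated T cells are known to raise sterol synthesis before they divide.

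The libraries held from 28555677 to 58104663 fragment counts. Levels are given as TPM, in which a gene's counts are scaled by its exon length and then to a fixed library total, so that genes of different length can be compared. The Th17 identity was clear in the markers: all 8 Th17 genes listed reached 1 TPM in each library, among them Il17a at 4436 ± 179 TPM (SD, n = 4), and the list summed to between 16479.7 and 17159.2 TPM. Of 8 macrophage markers 1 reached that level, Cd68, while Lyz2, Marco and C1qa were at 0 in all libraries and the list summed to between 7.10 and 8.45 TPM. Dendritic cell markers summed to at most 2.73 TPM, B cell markers to 1.91, stromal and epithelial markers to 0.877 and CD8 T and NK cell markers to 0.552. The libraries did not all carry the sex-linked pattern of a single animal, although they share a donor label. Xist, the RNA of the inactive X chromosome, stood at 132, 131, 0.329 and 0.496 TPM in replicates 1 to 4, and the Y-linked Eif2s3y at 0.282, 0.239, 65.5 and 58.4 TPM. The pattern was thus female in replicates 1 and 2 and male in replicates 3 and 4. The main values below are therefore given library by library, and Nsdhl and Ebp are the members that lie on chromosome X.

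Nearly the whole module was expressed. A gene is called expressed here when each library held it at 1 TPM or more, which was so for 30 of the 34 members and for 47% of the 21764 protein-coding genes. The exceptions were Soat2, Ch25h, Cyp27a1 and Cyp7b1. The range was wide: Srebf2, the master transcription factor of sterol synthesis, was highest at 278 ± 11.4 TPM (SD, n = 4), and Cyp27a1 and Cyp7b1 had no count. The 34 members summed to 1986 ± 43.2 TPM. The median over expressed protein-coding genes was 31.3 TPM, and 19 members lay above it. In these bulk samples, fewer cells that express a gene and less RNA per cell cannot be told apart.

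The highest members were the transcription factor gene Srebf2, the synthesis enzymes Cyp51 and Hmgcs1, and Insig1, which encodes the brake on SREBP release. Srebf2 (ENSMUSG00000022463.7, on the plus strand of chromosome 15 from 82147266 to 82205376 in mm10) stood at 287, 277, 262 and 284 TPM in replicates 1 to 4. Cyp51 (ENSMUSG00000001467.5, minus strand of chromosome 5, 4081145 to 4104746), the demethylase that starts the conversion of lanosterol, followed at 223, 226, 213 and 223 TPM. Every Srebf2 value lay above every Cyp51 value. Hmgcs1 (ENSMUSG00000093930.1, plus strand of chromosome 13, 119690462 to 119708086), which makes HMG-CoA ahead of mevalonate, had 179.8, 176, 178 and 178 TPM, the tightest set of the module. Insig1 (ENSMUSG00000045294.11, plus strand of chromosome 5, 28071363 to 28078662), the sterol-dependent anchor of SCAP and itself an SREBP target, had 156, 149, 148 and 154 TPM. These 4 genes held the first 4 places in each library, with no overlap between their ranges. With the length of the principal transcript in place of all exons, Sqle at 117 TPM would stand just above Hmgcs1 at 115 TPM, and the other 3 would stay in front. The Hmgcs1 transcript, at 3464 bases, is longer than its 3233 counted exon bases, so its 115 TPM may be too low on that scale. TPM by principal transcripts is a scale of its own, because the lengths of all genes change. Mylip, with 3062 exon bases and a principal transcript of 3065, went from 2.34 to 1.62 TPM. Such values are therefore to be set against each other and not directly against the main TPM.

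The stretches just upstream of the start sites of these 4 genes are shown with exact matches to certain motif spellings in capitals. They run 5′ to 3′ on the gene's strand over the 150 bases before the RefSeq start site (assembly GRCm38.p6), at chr15:82147119-82147268 on the plus strand for Srebf2, chr5:4104698-4104847 on the minus strand for Cyp51, chr13:119690201-119690350 on the plus strand for Hmgcs1 and chr5:28071262-28071411 on the plus strand for Insig1. Capitals mark a sterol regulatory element (TCACNCCAC), a CCAAT box (CCAAT, or ATTGG when it is on the other strand) or an E-box (CACGTG). Sites spelled otherwise are not marked.
Srebf2: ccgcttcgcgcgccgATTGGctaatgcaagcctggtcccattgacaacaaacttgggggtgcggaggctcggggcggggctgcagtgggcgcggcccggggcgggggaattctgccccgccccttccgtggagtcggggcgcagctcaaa
Cyp51: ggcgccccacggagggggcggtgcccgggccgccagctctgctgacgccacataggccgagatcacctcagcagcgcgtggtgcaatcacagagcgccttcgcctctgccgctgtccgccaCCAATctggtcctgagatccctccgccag
Hmgcs1: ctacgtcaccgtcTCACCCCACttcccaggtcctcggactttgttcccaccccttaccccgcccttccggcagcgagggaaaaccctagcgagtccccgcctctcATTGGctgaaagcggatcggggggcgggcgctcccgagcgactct
Insig1: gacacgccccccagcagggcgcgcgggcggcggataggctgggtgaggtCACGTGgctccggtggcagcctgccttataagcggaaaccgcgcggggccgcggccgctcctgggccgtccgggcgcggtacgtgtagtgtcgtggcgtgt

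**Figure D1:**
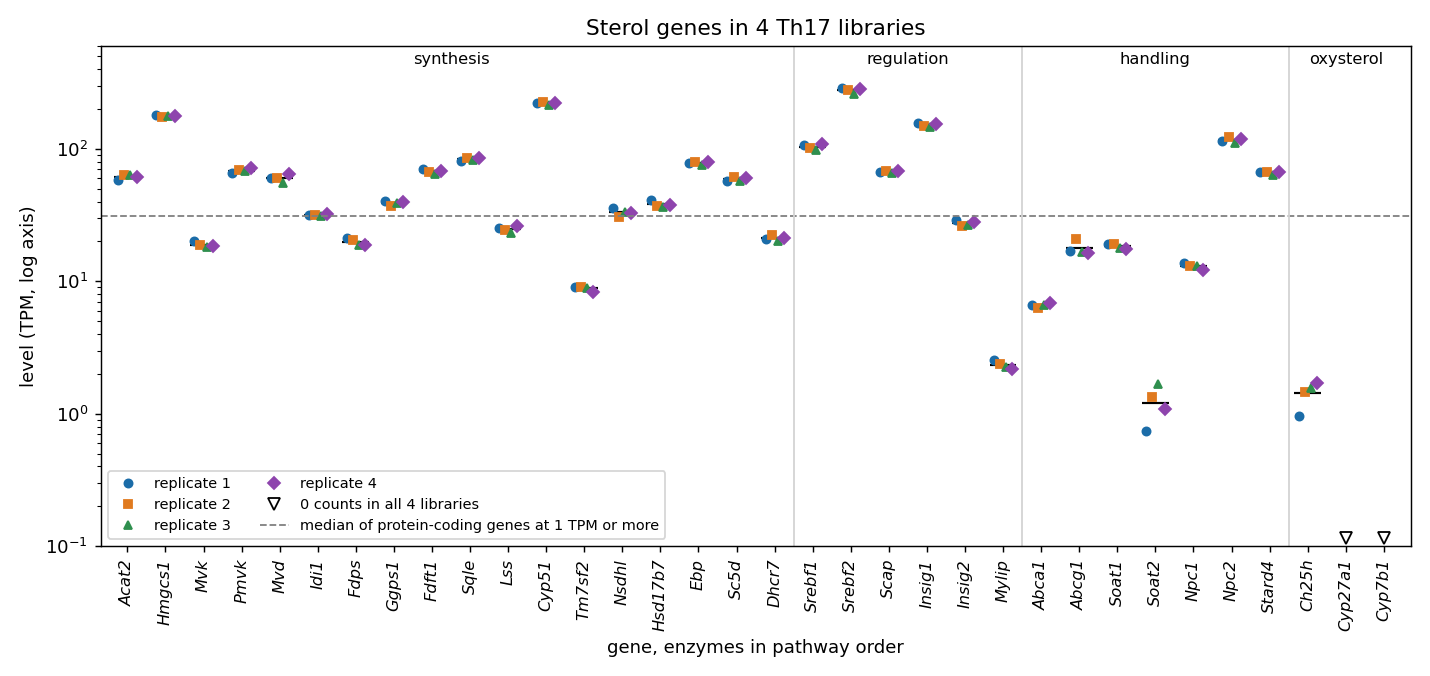
Level of each of the 34 sterol genes in each of the 4 Th17 libraries, in TPM on a log axis, grouped by role with the enzymes in pathway order; markers are libraries, short bars are means over the libraries, open triangles at the lower edge are genes with 0 counts in all libraries, and the dashed line is the median of expressed protein-coding genes, 31.3 TPM. Synthesis enzymes run from Tm7sf2 at 8.86 TPM to Cyp51 at 221 TPM, and the libraries of most genes lie on top of each other, with Soat2 and Ch25h spread more widely.

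All 18 synthesis enzymes were expressed, and they differed 25-fold in level between Cyp51 and Tm7sf2. The size of this span depends on length: the deposited exon length of Tm7sf2 is 3484 bases against 1471 for its principal transcript. On the scale of principal transcripts Tm7sf2 would stand at 14.6 TPM and Cyp51 at 173 TPM. The median of the enzymes was 49.1 ± 1.19 TPM (SD of the library medians, n = 4), and 13 of the 18 lay above the median of expressed genes. Summed over the enzymes, the libraries held 1121, 1120.0, 1088 and 1127 TPM in replicates 1 to 4, a mean of 1114 ± 17.7 TPM. The sum was lowest in replicate 3, and the other 3 libraries lay within a few TPM of each other.

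In the mevalonate part, Hmgcs1 stood far above the enzymes after it. Acat2, the thiolase that joins acetyl-CoA units, averaged 61.8 ± 2.52 TPM (SD, n = 4, as for the other means). The kinases that phosphorylate mevalonate in turn were unequal: Mvk, the first, had 20.1, 18.8, 18.3 and 18.4 TPM, and Pmvk, the next, had 65.9, 69.3, 67.9 and 71.7 TPM. Mvk was lower than Pmvk in 4 of 4 libraries, at 0.276 times its level, a log2 ratio of -1.86 that was -1.22 in counts scaled to the library total alone (CPM). Mvd, which decarboxylates the product to isopentenyl diphosphate, averaged 60.1 ± 3.85 TPM, and the isomerase Idi1 averaged 31.6 ± 0.452 TPM. Fdps, which builds farnesyl diphosphate, averaged 19.9 ± 1.21 TPM, and this level is uncertain. The deposited exon length of Fdps is 4208 bases against 1382 for its principal transcript. On the scale of principal transcripts it would stand at 42.2 TPM, at place 14 of the members and not 23. Of its exon bases, 26.7% lie under another gene of the same strand (Gm43738), where fragments could go uncounted.

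At farnesyl diphosphate the pathway branches to squalene or to longer isoprenoids that anchor small GTPases. Fdft1, the squalene synthase, had 71.1, 66.4, 64.5 and 68.5 TPM. Ggps1, which makes geranylgeranyl diphosphate, had 40.7, 37.0, 38.8 and 39.6 TPM. Fdft1 was higher than Ggps1 in 4 of 4 libraries, by 1.73-fold, and no library of Fdft1 reached down to those of Ggps1. Sqle, the squalene epoxidase and a known control point, had 81.4, 85.5, 82.7 and 85.4 TPM. Lss, the cyclase that closes lanosterol, had 25.3, 24.6, 23.3 and 26 TPM. Sqle was 3.37-fold higher than Lss, again with no overlap. That is a log2 ratio of 1.75, which was 0.80 in CPM, and the deposited exon length of Lss is 10787 bases against 4667 for its principal transcript.

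After lanosterol, the 6 members that act downstream of Cyp51 each had less transcript than Cyp51. Ebp, the sterol isomerase, was the highest of them at 78.1, 80.2, 75.6 and 79.2 TPM, followed by Sc5d, the desaturase, at 59.1 ± 1.92 TPM and Hsd17b7, the keto-reductase, at 38.1 ± 1.95 TPM. Nsdhl, the dehydrogenase of demethylation, had 36.0, 30.5, 33.6 and 32.9 TPM, with its highest and lowest values in replicates 1 and 2, which both carried Xist. Neither X-linked member was called in the fit described below, which asks for a spread beyond that of genes of like abundance. Dhcr7, the last reductase on one arm of the pathway, averaged 21.2 ± 1.01 TPM. Tm7sf2, a sterol reductase that follows Cyp51, was the lowest enzyme at 9.01, 9.12, 8.98 and 8.32 TPM. Lbr, the nuclear envelope protein with the same reductase activity and singled out after its values were seen, had 140.4, 141, 131 and 138 TPM, far above Tm7sf2 in every library. Of the exon bases of Tm7sf2, 15.3% overlap Vps51 on the same strand, so its count may be too low.

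The regulators had the highest median of the 4 roles. All 6 were expressed, the median was 85.7 ± 2.94 TPM (SD of the library medians, n = 4) and 4 of 6 lay above the median of expressed genes. Srebf1, which mainly drives fatty acid synthesis, had 108, 102, 97.4 and 109 TPM. Srebf2 was 2.67-fold higher than Srebf1, in 4 of 4 libraries. Scap, the escort of both precursors, had 67.2, 67.7, 66.3 and 67.9 TPM, and Srebf2 was 4.12-fold above it, a log2 ratio of 2.04 that was 1.202 with principal transcript lengths. The retention genes were unequal as well: Insig2 had 29.1, 25.99, 26.9 and 27.99 TPM, so that Insig1 was 5.50-fold higher in 4 of 4 libraries. Mylip, an LXR target and ubiquitin ligase that lowers lipoprotein uptake, was the lowest regulator at 2.56, 2.39, 2.24 and 2.17 TPM, and Insig1 was 62.2-fold above it.

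Sterol handling genes had a median of 17.7 ± 1.22 TPM, with 2 of 7 members above the median of expressed genes. By TPM this lay below the synthesis median of 49.1, but in CPM the medians were 42.05 for handling and 42.1 for synthesis. Those 2 were Npc2, the soluble lysosomal cholesterol carrier, at 116, 123, 112 and 119 TPM, and Stard4, a cytosolic sterol carrier, at 66.6, 67.3, 63.4 and 67.3 TPM. Npc1, the membrane partner that takes cholesterol from NPC2, had 13.8, 13.2, 13.1 and 12.2 TPM, or 0.112 times the level of Npc2, and was lower in 4 of 4 libraries. The size of this difference depends on length: the log2 ratio was -3.16 by TPM, -2.11 with principal transcript lengths and -1.45 in CPM. The ester-forming enzymes were of very unequal level. Soat1, the acyltransferase of most tissues, had 19.2, 19.1, 17.8 and 17.6 TPM, while Soat2, the form known from intestine and liver, had 0.740, 1.34, 1.68 and 1.08 TPM from 14, 33, 65 and 31 counts. Soat1 was 14.6-fold higher, in 4 of 4 libraries, on a log2 scale 3.87 ± 0.49 (SD, n = 4). That log2 ratio was 3.15 with a pseudocount of 1 and 5.95 in CPM.

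The exporters were measured at low to middling levels. Abca1, which loads cholesterol onto lipid-poor apolipoprotein, had 6.64, 6.30, 6.67 and 6.82 TPM. Abcg1, which passes it to mature high-density particles, had 17.1, 20.8, 16.6 and 16.4 TPM. Abca1 was at 0.378 times the level of Abcg1, lower in 4 of 4 libraries, but the size of this difference depends on the scaling by length. The log2 ratio was -1.40 ± 0.21 by TPM (SD, n = 4) and -0.87 with principal transcript lengths. In CPM, with no scaling by length, it was -0.07 (exact two-sided sign-flip test, p = 0.88). The principal transcript of Abcg1, at 5832 bases, exceeds its 4066 counted exon bases. Abcg1 in replicate 2 stood apart from its other 3 libraries, which lay within 16.4 to 17.1 TPM.

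The oxysterol enzymes were the quietest group. Ch25h, which hydroxylates the cholesterol side chain and is known to be induced by interferon in macrophages, had 0.955, 1.47, 1.57 and 1.72 TPM, from 11, 22, 37 and 30 counts. Cyp27a1, the mitochondrial side-chain hydroxylase, and Cyp7b1, which hydroxylates oxysterols further, had 0 counts in each library. With 3 counts per library as the limit of counting error, Cyp27a1 could have stood as high as 0.162, 0.125, 0.079 and 0.107 TPM in replicates 1 to 4. Against that limit Ch25h was at least 5.9-fold higher in replicate 1 and at least 11.8-, 19.9- and 16.1-fold higher in replicates 2 to 4. No ratio between Cyp27a1 and Cyp7b1 can be given.

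**Figure D2:**
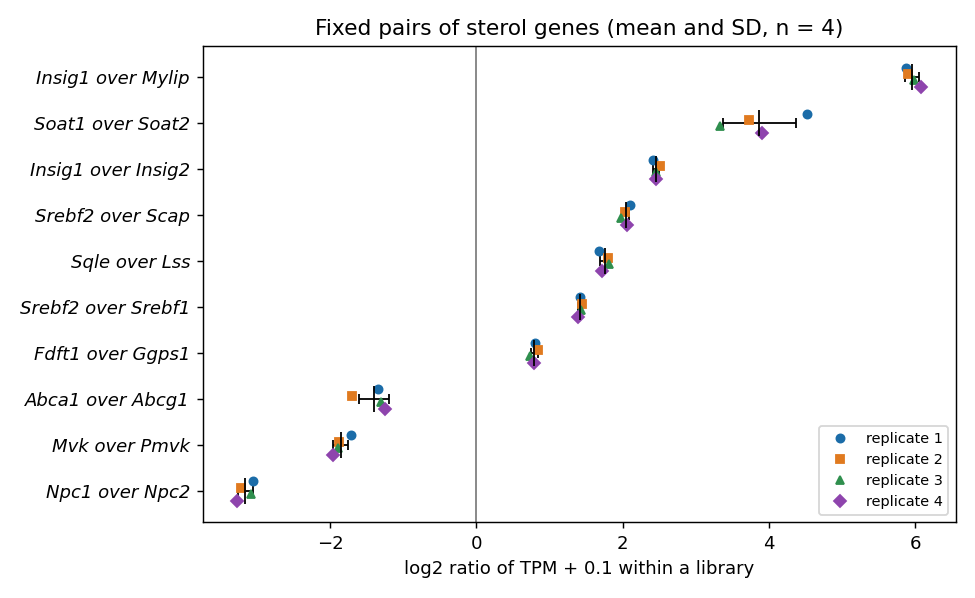
Log2 ratio of TPM + 0.1 within each library for the 10 fixed pairs of sterol genes with both genes above the counting limit; markers are libraries, the vertical tick is the mean and the bar is the SD over 4 libraries. No pair crosses 0: Insig1 over Mylip is the largest ratio (5.96) and Npc1 over Npc2 the lowest (-3.16), while Soat1 over Soat2 has the widest spread (SD 0.49).

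These ratios came from 12 pairs chosen by pathway logic, as paralogues, neighbouring steps or branch points, with earlier results of these data known. In each of the 10 pairs with both genes measurable, the direction was the same in 4 of 4 libraries. An exact two-sided sign-flip test over the libraries gave p = 0.12 for each pair and an adjusted p of 0.12 over the 10, which is the smallest value that 4 libraries allow (2 of 16 sign patterns). The log2 ratios were 1.42 ± 0.025 for Srebf2 over Srebf1, 2.04 ± 0.049 for Srebf2 over Scap, 2.46 ± 0.041 for Insig1 over Insig2 and 5.96 ± 0.096 for Insig1 over Mylip (SD, n = 4). Among the enzymes they were -1.86 ± 0.11 for Mvk over Pmvk, 1.75 ± 0.065 for Sqle over Lss and 0.79 ± 0.046 for Fdft1 over Ggps1. The remaining ratios were 3.87 ± 0.49 for Soat1 over Soat2, -1.40 ± 0.21 for Abca1 over Abcg1 and -3.16 ± 0.10 for Npc1 over Npc2. In each pair the mean was several times its SD.

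Ordered by mean level, the 34 members formed 33 neighbouring pairs, and 18 of them had ranges that did not overlap between the libraries. The order from Srebf2 through Cyp51, Hmgcs1, Insig1, Npc2, Srebf1, Sqle and Ebp was the same in every library. Below Ebp came Pmvk, Fdft1, Scap, Stard4, Acat2, Mvd and Sc5d, from 68.7 down to 59.1 TPM, whose neighbours overlapped, so their order is not settled. Transcript models shift some places. By principal transcript, Fdft1 moved from place 10 to 17 (36.3 TPM on that scale) and Ggps1 from 16 to 25 (15.1). Lss moved from 21 to 16 (39.8) and Dhcr7 from 22 to 18 (30.4). Srebf2 and Cyp51 kept the first and second places. The principal transcript lengths come from GENCODE M21, whereas the counts were made over M13 exons. For Fdft1 (3698 against 2860 bases) and Ggps1 (4244 against 2367) they exceed the exons counted, so these levels may be too low. Acat2 shares 28.9% of its 100-base windows with its neighbour Acat3, a near copy with 0, 0, 6 and 72 counts in replicates 1 to 4. Idi1 shares 15.8% of such windows with Gm13502, and fragments from shared sequence may have been lost from either count.

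The other genes of the pathway, taken from lists by function, were mostly expressed too: 33 of 35 met the same threshold. For SREBP processing and turnover, all 5 genes were expressed and 3 lay above the median of expressed genes. The site proteases Mbtps1 and Mbtps2, which cut the precursors, averaged 37.1 ± 1.48 and 18.4 ± 0.870 TPM. All 5 cofactor genes were expressed, with Sp1 at 79.9 ± 3.49 TPM and the NF-Y subunits Nfya, Nfyb and Nfyc at 37.8 ± 1.18, 67.3 ± 0.607 and 41.5 ± 2.21 TPM. Of the LXR genes, Nr1h2 (LXRβ) averaged 53.7 ± 1.43 TPM. Its paralogue Nr1h3 (LXRα) had only 3, 8, 11 and 20 counts, or 0.140, 0.287, 0.2501 and 0.614 TPM. Every Nr1h3 value was thus far below every Nr1h2 value.

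All 11 genes of the non-sterol isoprenoid branches were expressed, 8 of them above the median of expressed genes. Rabggtb, a subunit of the enzyme that prenylates Rab GTPases, averaged 211 ± 8.28 TPM and Nus1, a subunit of the dolichol synthase, averaged 124 ± 1.66 TPM. Pdss2, a subunit of the enzyme that makes the ubiquinone tail, was the lowest at 7.83 ± 0.364 TPM. Of 10 genes for sterol transfer and other sterol enzymes, 9 were expressed. Gramd1a, which carries cholesterol between plasma membrane and endoplasmic reticulum, averaged 192 ± 4.06 TPM, and its paralogue Gramd1c fell short of 1 TPM at 0.959 ± 0.111 TPM.

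The spread between the libraries was set against that of all genes. EdgeR's negative binomial fit over 12434 genes asked which genes spread between the libraries beyond what is typical at their abundance. A gene with the typical spread is not called, even where its libraries differ. At a Benjamini-Hochberg adjusted p under 0.05, 65 genes (0.523%) were called. Of the 32 members tested 0 were, a count near what that share gives for 32 genes. Cyp27a1 and Cyp7b1, with no counts, were not tested. At an unadjusted p under 0.05, edgeR had 557 of all genes, or 4.48%, and 1 member, which was Abcg1. The adjusted p of Abcg1 was 0.76. DESeq2's fitted trend in the same test also called 0 members. Against counting error alone (Poisson deviance), 15 of the 32 members differed, beside 36.6% of all genes. None of the 34 other pathway genes tested was called by edgeR, where the lowest adjusted p was 0.231 and 1 gene had an unadjusted p under 0.05.

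The steadiest member was Hmgcs1, with an SD of log2 CPM of 0.013 over the 4 libraries. Scap (0.019) and Idi1 (0.023) came next. The median SD over the 32 members was 0.058, against 0.070 over all genes tested, a comparison not matched for abundance. Set beside genes of like abundance, within 0.25 log2 CPM, 12 of the 32 members lay below the median SD and the others above it. At a mean of 10 TPM or more, the coefficient of variation of TPM had a median of 4.14% over 27 members and 3.54% over 7905 protein-coding genes. Srebf2 and Srebf1 were among those above, at 0.055 and 0.072 where genes of like abundance had medians of 0.035 and 0.039. Soat2 (0.48) and Ch25h (0.35), the tested members with the fewest counts, spread the most, and of these Soat2 was among the 15 that differed by the Poisson deviance.

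**Figure D3:**
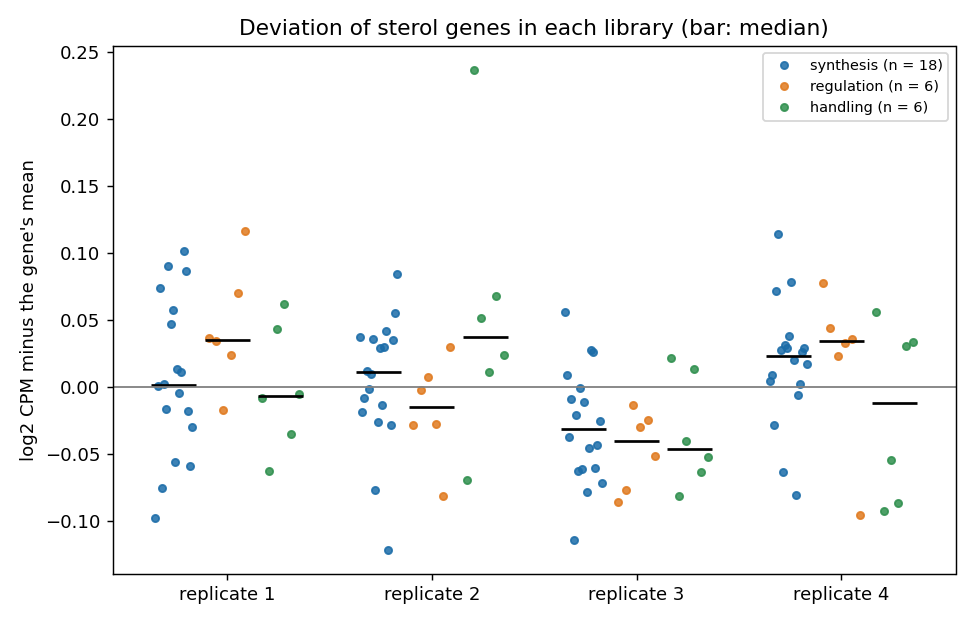
Deviation of each sterol gene from its own mean over the 4 Th17 libraries, in log2 CPM, by library and role; points are genes, bars are medians of the points shown, and Soat2 and the oxysterol enzymes are left out because their counts are few. The 6 regulators all lie below 0 in replicate 3, and the single handling gene near 0.24 in replicate 2 is Abcg1.

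The deviation of each member from its own mean over the libraries was taken library by library. In replicate 3 the median deviation of the synthesis enzymes was -0.031 log2 CPM and 4 of 18 were above their own mean, whereas in replicate 4 it was 0.023 and 14 of 18 were above. In replicates 1 and 2 it was 0.0014 and 0.011, with 10 of 18 above in each. Over all genes tested, between 50.3% and 50.9% were above their mean in each library. For the regulators the medians were 0.035, -0.015, -0.0405 and 0.034 in replicates 1 to 4, with 5, 2, 0 and 5 of 6 above. The handling genes did not follow this order, with medians of -0.0080, 0.051, -0.040 and -0.055 and 2, 6, 3 and 3 of 7 above. Replicate 3 was also the library with the most counts and the highest mitochondrial share, 1.18% against 0.778% to 0.97% in the others, and the part of either in these deviations was not tested.

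Promoter windows were examined in RefSeq (assembly GRCm38.p6), over the 250 bases before and 50 after each start site, for motifs of the pathway's transcription factors. A window existed for 26 of the 34 members, in 34 windows. The motif counts do not cover Fdps, Fdft1, Sqle, Abcg1, Soat2, Npc1, Stard4 and Cyp7b1, which had none. Both strands were searched, and a match is a description of letters in the window. The CCAAT box, bound by NF-Y, a cofactor of the SREBPs, was found in 22 of the 26 members (84.6%), against 41.1% of all genes with a window. Among expressed genes the shares were 21 of 24 members (87.5%) and 43.6% of genes. In the sequences printed above it is the ATTGG at base -135 of Srebf2 and at -45 of Hmgcs1 and the CCAAT at -29 of Cyp51, counted at the first base of the match from the start site. Insig1 has its CCAAT box farther out, at -216.

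The Sp1 motif GGGCGG was in 22 of the 24 expressed members (91.7%) and in 71.2% of expressed genes. The E-box CACGTG, which SREBP-1 and other factors can bind, was in 6 of the 24 (25%) and in 12.4% of expressed genes. Its carriers were Abca1, Dhcr7, Hsd17b7, Insig1, Sc5d and Scap, and in Insig1 it lies at -101, in the sequence shown. The sterol regulatory element TCACNCCAC was in 1 of the 26 members, Hmgcs1, at -137 on the gene's strand, and in 1.44% of all genes with a window. A direct repeat of the LXR type (DR4, each half-site with at most 1 mismatch) was in 0 of the 26 members and 2.02% of all genes with a window. These strict motif spellings miss variants, and a window without a match says only that these letters are not there.

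**Figure D4:**
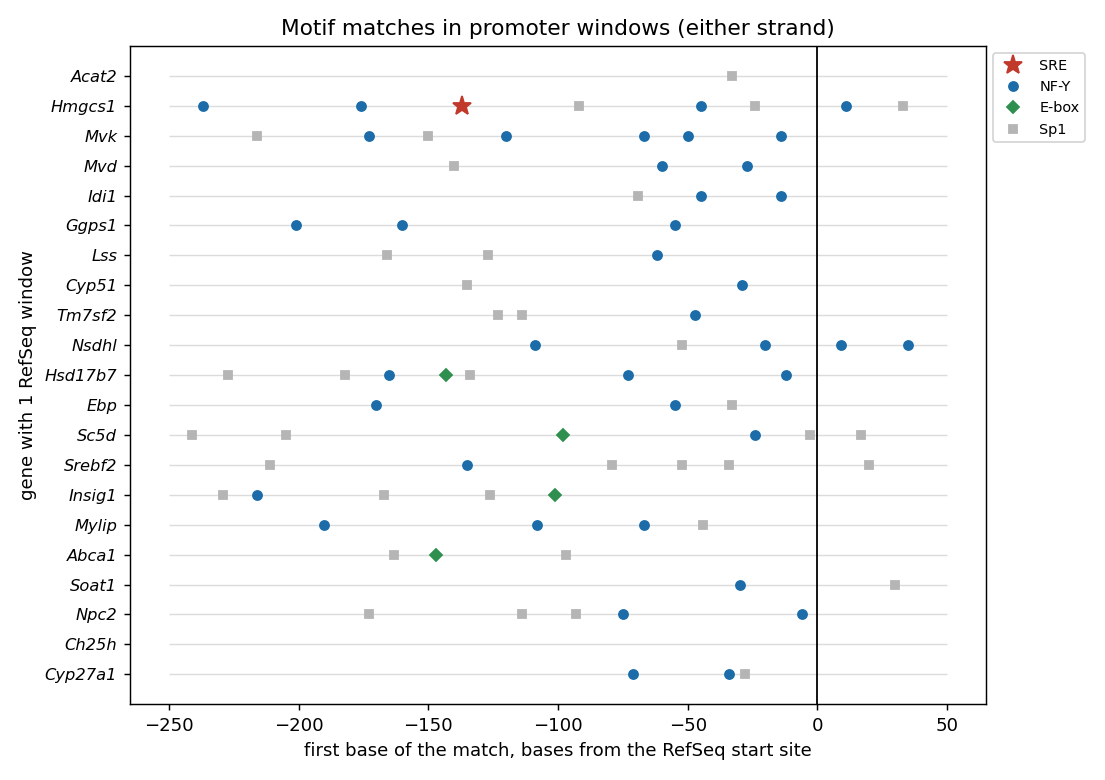
Motif matches in the promoter windows of the 21 sterol genes with a single RefSeq window; the horizontal axis is the first base of each match in bases from the RefSeq start site, and the vertical line is the start site. CCAAT boxes (circles, NF-Y) recur in most rows, and the sterol regulatory element (star) appears only in Hmgcs1.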

How the data were processed

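The authors deposited raw fragment counts per gene with each gene's exon length, made per the file headers with featureCounts 1.4.6-p4 on paired reads with both ends mapped, strand option 2 (reverse-stranded) and GENCODE M13 models. The build is mm10 per the labels. No source used here names the aligner. Fragments that map to several places or lie on several genes were not counted, per the options in the file headers. Symbols came from GENCODE M21 by gene ID (22 of 34 members also matched in version).

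From the counts, TPM was computed here with the deposited exon lengths, with CPM for variation. Variation between libraries was the negative binomial deviance of an intercept-only fit in edgeR 4.0.16 (R 4.3.3) at the trended dispersion, with TMM scaling, its default filter and Benjamini-Hochberg adjustment over 12434 genes. DESeq2 1.42.0, a Poisson deviance, other filters, scalings, pseudocounts and left-out replicates were alternatives, and the principal-transcript length was one chosen after seeing the data. That length came from GENCODE M21 and for some members exceeds the exons counted under M13. Pairs were compared on log2(TPM + 0.1), with an exact sign-flip test. The tests were checked on simulated data. The total per library was 28555677, 36998648, 58104663 and 42896684 counts, and a floor of 3 counts is 0.105, 0.0811, 0.0516 and 0.0699 CPM in replicates 1 to 4. Floors cover counting error only. Sequence shared between genes was searched as 100-base windows of GENCODE M21 transcripts.

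The members, lists, pairs and tests were chosen with earlier results of these data known. All members were named, with the genes of the lists by function, the cell type markers, sex-linked genes for a check of the libraries and genes that share sequence with a member.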

Additional observations from a re-analysis of the deposited data

Results flagged for a closer look

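In a set of 4 libraries, a gene was singled out when its highest or lowest library lay so far from the next that the gap took up more of the whole range than Dixon's 95% critical value allows. Chance alone gives this for about 1 in 20 genes. It was met by 8 of 98 genes looked at, and among the sterol genes by 1 of 32.

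That member was Abcg1, the exporter to high-density particles, whose replicate 2 stood at 20.8 TPM while the other 3 libraries lay within 16.4 to 17.1 TPM. In edgeR's fit its adjusted p was 0.76. Macrophage markers summed to 7.11 TPM in replicate 2 and to between 7.10 and 8.45 TPM over all libraries. The sums of dendritic cell (2.73 TPM), B cell (1.91) and CD8 T and NK cell markers (0.552) were highest in replicate 2. That of stromal and epithelial markers was lowest there, at 0.474 TPM. Any part of other cells in the Abcg1 value was not tested.

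Among the other pathway genes, Pdss1, a subunit of the enzyme for the ubiquinone tail, was high in replicate 4 at 23.7 TPM, and Pggt1b, a subunit of a prenyltransferase, was low there at 37.3 TPM. Osbpl2 and Stard3, both sterol transfer genes, were high in replicate 1 at 34.2 and 29.4 TPM. Among the markers of other cell types, Pax5 at 0.0262 TPM (3 counts) and Pdgfra at 0.00771 TPM (1 count) were high in replicate 4, and Col1a1 was low in replicate 2 at 0.0688 TPM (5 counts). These marker values rest on a few counts each.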

How the results depend on the processing

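The means of the 10 pair ratios kept their direction under other pseudocounts, under CPM, under principal-transcript lengths and with each replicate left out. For Abca1 over Abcg1 in CPM that mean was only -0.07, and single libraries did not keep the direction. There Abca1 was the higher in replicate 3 (20.8 against 20.3 CPM) and replicate 4 (21.3 against 20.2 CPM). Libraries could not be paired with each other because they form a single group. Role medians depended on the scaling: without scaling by length they were 42.1 CPM for synthesis, 146 for regulation and 42.0 for handling. Over protein-coding genes without mitochondrial genes they were 52.0 TPM for synthesis and 90.8 for regulation. With principal-transcript lengths, chosen after seeing the data, they were 40.8 TPM for synthesis and 14.9 for handling. Those lengths give a TPM scale of their own, so these medians do not compare directly with the main ones.

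The count of all genes called as differing between libraries was 65. It was 113 with no filter on low counts, 4550 by the Poisson deviance, 69 with DESeq2's trend, and between 32 and 49 with a replicate left out (35 without replicate 1 and 32 without replicate 4). The members called were 15 of 32 by the Poisson deviance and 0 under every other alternative run. The members called expressed numbered 32 without replicate 1 and 30 without replicate 2, 3 or 4. Soat2 and Ch25h had at most 65 counts in any library, which limits the precision of their values.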
